A study of Mus musculus with 4 samples.

Results

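The genes of the cell death pathway described here were the caspases, the Bcl2 family, the inhibitors of apoptosis, and the receptors and ligands of the tumor necrosis factor (TNF) superfamily. They were chosen by gene symbol: every symbol that starts with Casp or Birc and a digit, with Bcl2, or with Tnfrsf or Tnfsf and a digit, together with Bax, Bak1, Bok, Bad, Bid, Bbc3, Pmaip1, Mcl1, Apaf1, Cflar, Fadd and Diablo. This gave 90 of the 33012 probes of the array, for 82 of the 15961 genes named on it. Of all probes, 17302 carried a gene symbol. The array used some older names. Xiap was listed as Birc4, Fas as Tnfrsf6, Fas ligand as Tnfsf6, and the Naip genes as Birc1. Bik and Hrk were not found under those symbols. Tnfsf5ip1, which the symbol rule also took, is now named Psmg2 and encodes a proteasome assembly factor.

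RNA was measured in 4 cultured mouse melanoma lines of C57Bl6 background. B16 is the parental line (B16F1). For B16-RI, B16 cells were injected once into the dermis of C57Bl6 mice, and the tumor was taken out after 14 to 17 days. The line was grown from metastases in lymph nodes. B16-RI was injected again, and lymph node metastases of this second round gave B16-RII, while lung metastases gave B16-RIIL. All 4 lines were cultured in medium with 20% serum for up to 10 passages, and the RNA of a line was pooled from 2 passage numbers. The array gives a single chemiluminescence signal per probe. A single array per line was used, so no difference between lines could be tested or has a replicate check, and all statements below describe these 4 arrays.

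Apoptosis can be started from inside or outside the cell. In the mitochondrial route, BH3-only proteins such as Bid and Bcl2l11 act on Bax and Bak1, which open the outer mitochondrial membrane, and Bcl2, Bcl2l1 and Mcl1 hold them back. Released cytochrome c then assembles with Apaf1 and Casp9, which cleaves the executioner caspases. In the receptor route, death domain receptors such as Fas bind Fadd and Casp8, and Cflar competes for this site. Inhibitors of apoptosis such as Xiap restrain caspases or act as ubiquitin ligases downstream of TNF receptors, and decoy receptors bind death ligands without passing the signal on.

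Values below are scaled signals, which are the normalized signals of the authors with the typical offset of each line from B16 taken out separately for 2 sets of probes. A probe was detected where its signal-to-noise ratio (S/N) was at least 3 and its flag at most 5000. A pair of lines was called different for a probe at 2-fold or more, with the brighter array detected. Where the dimmer array was not detected, the fold is a lower bound and is written as "at least". The arrays detected 13872 to 14855 probes. All 5 melanocyte probes (Tyr, Tyrp1, Dct, Si and Mitf) were detected in every line, with summed scaled signals of 5050 to 5630. Among 487 genes with 2 probes detected on all arrays, the SD per probe of the difference from B16 was 0.33 in B16-RI, 0.37 in B16-RII and 0.35 in B16-RIIL on the log2 scale. This spread covers probe and spot error but not the spread between cultures.

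Most probes for the adaptors, the pore formers and the BH3-only proteins were detected in all 4 lines, while most probes for receptors and ligands were detected in none. Of the 90 probes, 35 were detected on all 4 arrays, or 38.9%, against 35.2% of all probes and 46.6% of probes with a gene symbol. Another 39 were detected on no array, or 43.3%, against 43.4% of all probes and 34.2% of probes with a symbol. Of 50 probes for caspases, adaptors, Bcl2 proteins, inhibitors and Diablo, 28 were detected on all 4 arrays and 14 on none. Of 39 probes for TNF receptors and ligands, 6 were detected on all 4 arrays and 25 on none. All 5 probes of Apaf1, Fadd, Cflar and Casp8ap2, and all 3 probes of Bax, Bak1 and Bok were detected in every line. A probe that was not detected shows only that its signal was within noise on these arrays.

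**Figure D1:**
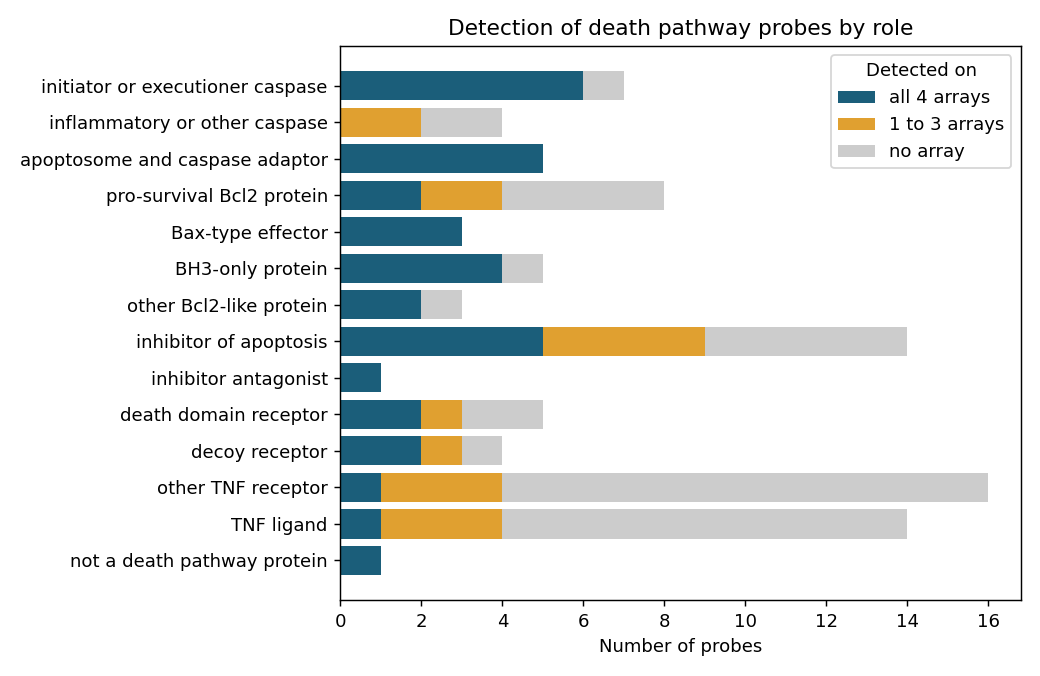
Number of member probes (x axis) in each role (y axis), split into probes detected on all 4 arrays, on 1 to 3 arrays, and on no array. Adaptors and Bax-type effectors were detected throughout, whereas 12 of 16 probes for other TNF receptors and 10 of 14 probes for TNF ligands were detected on no array.

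The lines differed from B16 at few members, and about as often as at other probes. In at least 1 passaged line, 16 of the 90 probes were 2-fold or more from B16, or 17.8%, against 17.5% of all probes and 16.4% of probes with a gene symbol. Counting the comparison of the second round lines as well, it was 17 probes (18.9%), against 19.9% of all probes. In B16-RI no member was above B16, against 3.75% of all probes, and 7 were below (7.78%), against 5.69%. In B16-RII 4 were above (4.44%), against 3.34%, and 7 below, against 5.61%. In B16-RIIL 4 were above, against 4.24%, and 9 below (10.0%), against 5.05%. Between the second round lines, 1 member was above and 1 below in B16-RIIL (1.11% each), against 4.56% and 3.22% of all probes. Over probes with a gene symbol, the shares above B16 were 3.49%, 3.63% and 4.37% in B16-RI, B16-RII and B16-RIIL, those below were 5.25%, 5.06% and 4.4%, and B16-RIIL was above B16-RII at 4.2% and below at 2.95%. The balance of directions depended on the scaling. With the deposited values, 2 members were above and 6 below in B16-RI, 7 and 5 in B16-RII, 6 and 6 in B16-RIIL, and 1 and 2 between the second round lines. The share of calls above B16 then went from 0.0% to 25.0%, from 36.4% to 58.3% and from 30.8% to 50.0% in the 3 lines, while over all probes it went from 39.7% to 52.3%, from 37.3% to 63.4% and from 45.7% to 60.2%. For B16-RIIL against B16-RII it went from 50.0% to 33.3%, and over all probes from 58.6% to 44.8%.

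**Figure D2:**
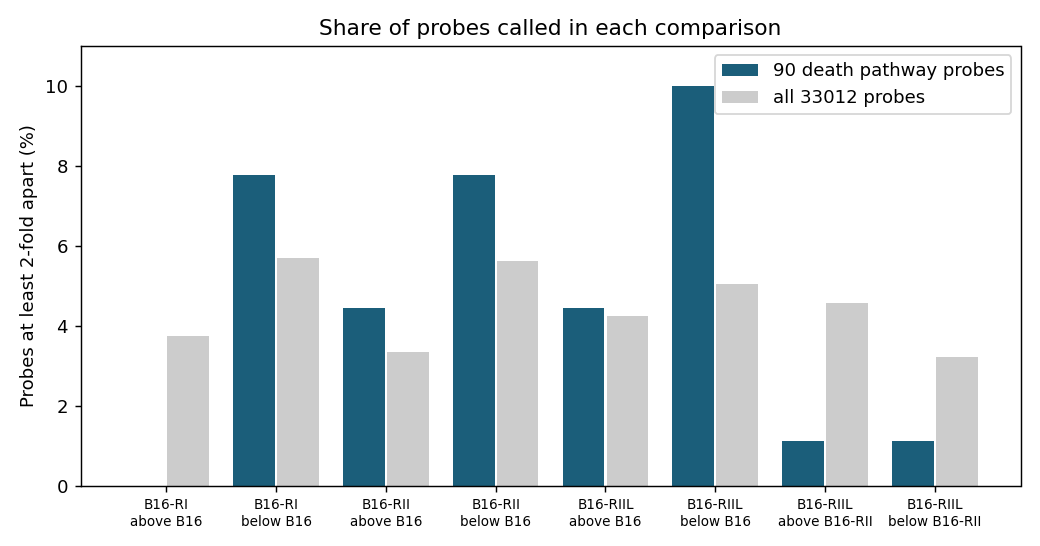
Share of probes (y axis, %) that were 2-fold or more apart in each comparison and direction (x axis), for the 90 death pathway probes and for all 33012 probes. The member shares lie between 0.0% and 10.0%, and 9 probes stand behind the tallest bar.

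In all, 4 genes were detected in B16 alone and were lower in all 3 passaged lines: Tnfrsf11b, Tnfsf13b, Tnfrsf8 and Birc1a. Here and below, the 3 comparisons with B16 share its single array, so they are not independent of each other. Being lower in all 3 lines, whatever the detection there, was seen in 4.44% of the members, in 2.48% of all probes and in 2.09% of probes with a gene symbol. No member was above B16 in all 3 passaged lines, against 0.621% of all probes and 0.815% of probes with a symbol. Tnfrsf11b encodes osteoprotegerin, a secreted decoy receptor for the ligands RANKL (Tnfsf11) and TRAIL (Tnfsf10). Its scaled signal was 4.9 in B16, 0.343 in B16-RI, 0.271 in B16-RII and 0.407 in B16-RIIL. B16 was the only line above noise, with an S/N of 17.12 against 0.74 to 1.38 in the others. The signal was at least 14.3-fold lower in B16-RI, at least 17.6-fold lower in B16-RII and at least 12.0-fold lower in B16-RIIL. Neither ligand, Tnfsf10 nor Tnfsf11, nor the RANKL receptor Tnfrsf11a, with 2 probes, was detected in any line.

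Tnfsf13b encodes BAFF, a survival factor for B cells. Its scaled signals were 2.16, 0.526, 0.648 and 0.545 in B16, B16-RI, B16-RII and B16-RIIL. No passaged line had a detected signal, and the bounds were at least 4.1-fold, 3.33-fold and 3.97-fold lower than B16. Tnfrsf8 (CD30), a receptor of activated lymphocytes, had scaled signals of 1.23, 0.381, 0.314 and 0.382, at least 3.23-fold, 3.92-fold and 3.22-fold lower than B16. Its S/N in B16 was 3.0, exactly at the limit of detection. Birc1a (Naip1), a sensor of bacterial proteins that carries the repeats of the inhibitor of apoptosis family, had 2.43, 0.601, 1.18 and 0.714, at least 4.05-fold, 2.06-fold and 3.4-fold lower, with an S/N of 3.13 in B16. The call for Birc1a in B16-RII was lost under 3 of 4 other scalings. Its close relative Birc1b (Naip2) was detected in all 4 lines at 8.88, 5.51, 7.49 and 7.4, less than 2-fold below B16 in each. Whether a Naip probe also binds RNA of the related copies was not tested. Tnfrsf19, a receptor without a classical death domain, was the fifth member detected in B16 alone, with 2.73, 1.2, 2.26 and 1.82, and was called lower only in B16-RI, by at least 2.27-fold. Detection in B16 alone was found for 5.56% of the members, 3.32% of all probes and 2.9% of probes with a gene symbol.

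The promoter of Tnfrsf11b was not in the RefSeq promoter table used here. The sequences upstream of the other 3 genes, which were lower in every passaged line, are shown from 250 bases before the RefSeq start up to the start (GRCm38.p6, on the strand of the gene). The Tnfsf13b stretch lies at chr8:10006217-10006466 on the + strand, that of Tnfrsf8 at chr4:145315165-145315414 on the - strand, and that of Birc1a (Naip1) at chr13:100452865-100453114 on the - strand. Both strands were searched for a kappa-B consensus, the E-box CACGTG, the AP-1 site TGANTCA and the GC box GGGCGG, and matches are in capitals.
Tnfsf13b: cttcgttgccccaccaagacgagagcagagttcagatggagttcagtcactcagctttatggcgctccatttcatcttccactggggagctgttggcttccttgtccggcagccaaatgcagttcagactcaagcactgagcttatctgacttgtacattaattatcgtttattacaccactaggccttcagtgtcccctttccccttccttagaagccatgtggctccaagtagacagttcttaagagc
Tnfrsf8: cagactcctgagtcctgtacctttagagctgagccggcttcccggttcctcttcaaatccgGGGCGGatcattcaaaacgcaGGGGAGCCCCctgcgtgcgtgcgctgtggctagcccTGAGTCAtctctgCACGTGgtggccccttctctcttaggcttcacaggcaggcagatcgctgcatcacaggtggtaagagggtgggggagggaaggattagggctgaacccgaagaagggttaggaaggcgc
Birc1a: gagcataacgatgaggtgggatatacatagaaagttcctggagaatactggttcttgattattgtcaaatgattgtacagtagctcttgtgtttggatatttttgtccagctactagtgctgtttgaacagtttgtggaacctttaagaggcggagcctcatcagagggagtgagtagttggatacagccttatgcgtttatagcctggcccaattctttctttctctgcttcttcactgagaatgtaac
Tnfrsf8 held 1 match to each of the 4 motifs, and the other 2 stretches held none, so these genes shared none of the searched motifs. Among 27025 promoters of this length, 3.75% held the kappa-B consensus, 6.05% the E-box, 6.87% the AP-1 site and 32.9% the GC box. Among the 67 members with a promoter in the table, the shares were 7.46%, 7.46%, 10.4% and 55.2%. A match is only a run of letters and does not show binding.

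Another 3 genes were detected in both second round lines and in neither B16 nor B16-RI: Birc3, Tnfrsf13c and Tnfrsf25. This was 3.33% of the members, 1.33% of all probes and 1.28% of probes with a gene symbol. Birc3 (cIAP2) is a ubiquitin ligase of the inhibitor of apoptosis family that acts downstream of TNF receptors, and its transcription is a known target of NF-kappa-B. Its scaled signals were 0.41 in B16, 0.667 in B16-RI, 1.94 in B16-RII and 2.19 in B16-RIIL. The S/N was 5.74 in B16-RII and 3.5 in B16-RIIL, the latter near the limit of 3. In B16-RI it was 1.92, and no fold against B16-RI was computed. The signal was at least 4.74-fold higher than in B16 in B16-RII and at least 5.35-fold higher in B16-RIIL. Its neighbour Birc2 (cIAP1), with the same function, was detected in every line at 5.63, 4.39, 4.96 and 5.48, within 1.28-fold of B16.

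Tnfrsf13c (BAFF receptor), the receptor of B cells for Tnfsf13b, had 0.41, 0.705, 1.46 and 2.16 in B16, B16-RI, B16-RII and B16-RIIL. Its S/N was 3.49 in B16-RII and 4.55 in B16-RIIL, near the limit of 3. B16-RII exceeded B16 by at least 3.55-fold and B16-RIIL by at least 5.27-fold, whereas its ligand Tnfsf13b was lower than B16 in both. Tnfrsf25 (DR3), a death domain receptor, had 0.64, 1.82, 1.61 and 2.35, at least 2.52-fold and 3.66-fold above B16 in the second round lines. The S/N there was 5.05 in B16-RII and 6.71 in B16-RIIL. The B16-RI signal of Tnfrsf25 was as bright as that of B16-RII but had an S/N of 2.15 and was not counted as detected, so the separation of B16-RI from the second round rests on the S/N limit for this gene. Its ligand Tnfsf15 was not detected in any line.

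Markers of lymphoid cells are given beside these 3 genes because Tnfrsf13c, Tnfrsf8 and Tnfsf13b are best known from leucocytes. Of 12 leucocyte probes, 4 were detected in B16, 5 in B16-RI, 3 in B16-RII and 7 in B16-RIIL. Ptprc (CD45) was detected in no line. Without Cd79a, their summed scaled signal was 10.2 in B16 and 9.67 to 9.81 in the passaged lines. The brighter of the Cd79a probes was at 56.0 to 62.9 in all 4 lines. Macrophage probes, 7 in all, summed to 9.28 in B16 and to 6.43 to 7.36 in the passaged lines. The part of such cells in the values of these members was not tested, and in bulk RNA fewer cells of a type and less RNA per cell cannot be told apart.

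The upstream stretches of the 3 genes are shown because the genes were detected in the same lines. The Birc3 stretch lies at chr9:7873171-7873420 on the - strand, that of Tnfrsf13c at chr15:82224381-82224630 on the - strand, and that of Tnfrsf25 at chr4:152115684-152115933 on the + strand. Capitals mark the same motifs.
Birc3: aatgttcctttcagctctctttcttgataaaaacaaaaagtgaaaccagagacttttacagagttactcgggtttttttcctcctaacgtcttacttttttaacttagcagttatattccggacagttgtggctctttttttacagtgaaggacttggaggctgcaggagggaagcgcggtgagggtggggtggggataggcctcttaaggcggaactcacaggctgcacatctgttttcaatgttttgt
Tnfrsf13c: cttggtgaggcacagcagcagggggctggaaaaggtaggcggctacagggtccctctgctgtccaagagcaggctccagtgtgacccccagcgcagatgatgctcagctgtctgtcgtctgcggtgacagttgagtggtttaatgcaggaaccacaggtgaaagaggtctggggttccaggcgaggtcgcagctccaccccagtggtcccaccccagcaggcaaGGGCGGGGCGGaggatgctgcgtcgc
Tnfrsf25: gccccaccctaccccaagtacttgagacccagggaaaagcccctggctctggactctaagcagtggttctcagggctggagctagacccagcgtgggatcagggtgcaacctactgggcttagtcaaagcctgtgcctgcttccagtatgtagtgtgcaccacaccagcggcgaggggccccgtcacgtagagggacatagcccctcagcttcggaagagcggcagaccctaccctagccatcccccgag
Tnfrsf13c held 2 overlapping GC boxes, starting at -26 and -21 from the start, while Birc3 and Tnfrsf25 held none of the 4 motifs in this window.

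**Figure D3:**
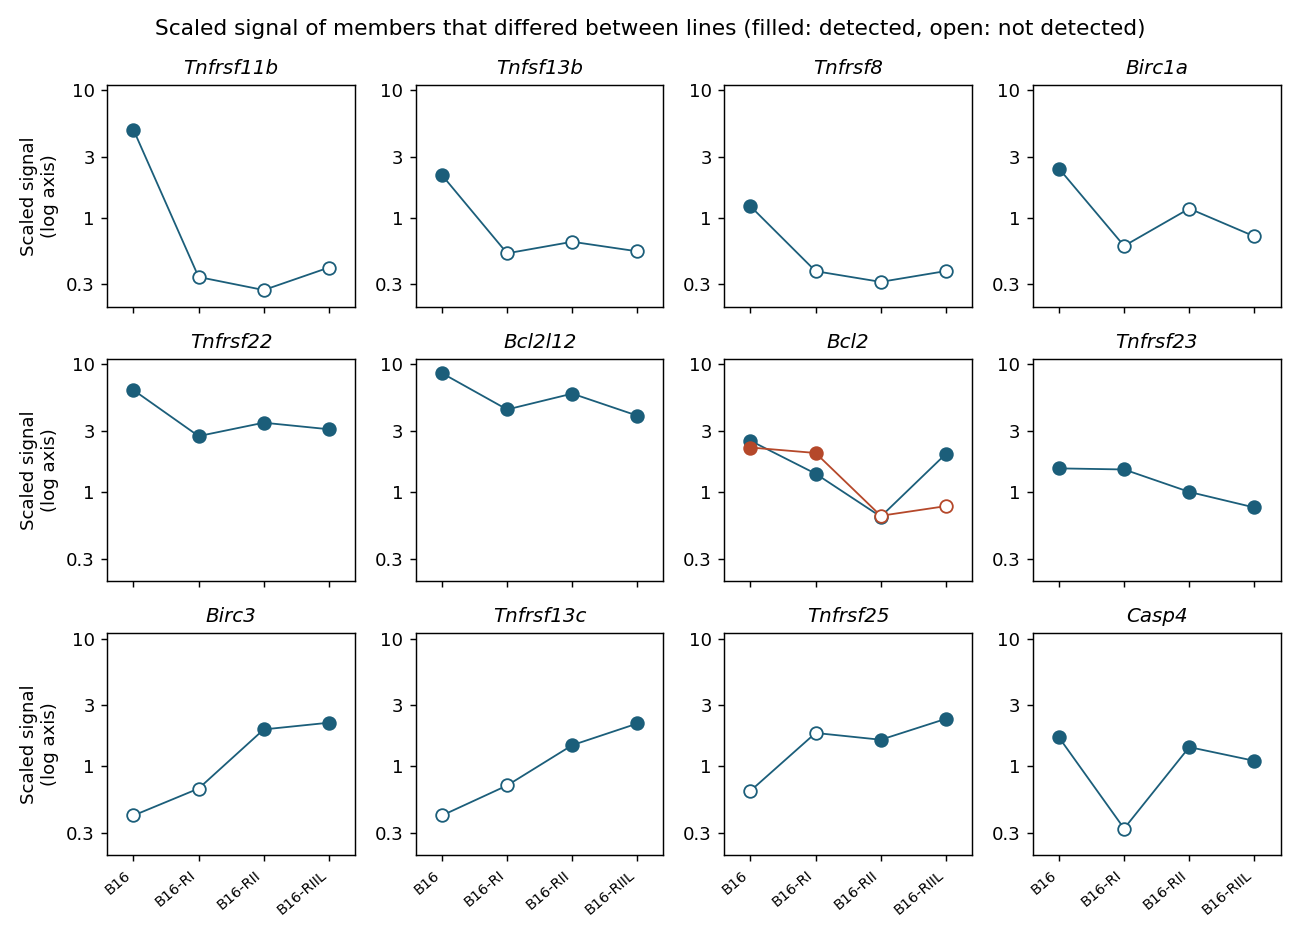
Scaled signal (y axis, log scale) of 12 members in the 4 lines (x axis), where filled points were detected and open points were not, and the 2 colors for Bcl2 are its 2 probes. Tnfrsf11b, Tnfsf13b, Tnfrsf8 and Birc1a are above noise in B16 alone, and Birc3, Tnfrsf13c and Tnfrsf25 in the second round lines alone. Lines join the points of a probe for reading only.

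No initiator caspase or adaptor reached 2-fold in any line. Casp9 had scaled signals of 5.71, 7.36, 8.22 and 5.56 in B16, B16-RI, B16-RII and B16-RIIL, at most 1.44-fold from B16. Casp2, an initiator linked to DNA damage, had 2.24, 2.68, 1.62 and 2.35. Casp6, an executioner that cuts the proteins of the nuclear lamina, had 17.5, 19.8, 16.9 and 13.9. Apaf1, the core of the apoptosome, had 5.18, 5.81, 6.22 and 6.81, and Diablo, which relieves caspases from their inhibitors, 11.7, 12.2, 12.2 and 12.4. All these differences stayed within 1.5-fold. Casp8, the initiator of the receptor route, was not detected in any line, with S/N values from -2.12 to -0.39, while its adaptor Fadd was detected in all at 8.18, 9.21, 8.97 and 9.65. Casp8ap2, a nuclear protein named for binding Casp8, had 8.44, 9.88, 11.1 and 9.89.

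Cflar, the competitor of Casp8, gave no single answer. Its first probe had 7.33, 11.8, 11.1 and 9.62, with positive log2 differences from B16 of 0.69, 0.61 and 0.39. Its second probe had 17.9, 11.6, 11.4 and 15.2, and was below B16, with log2 differences of -0.62, -0.66 and -0.23. The probes went in opposite directions in all 3 lines, except that with the deposited values the second probe of B16-RIIL was at 21.0 against 17.9 in B16, so no direction is given for the gene.

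The inflammatory caspases, which act in pyroptosis and cytokine maturation, were near the limit of detection. Casp4, a sensor of bacterial lipopolysaccharide, was detected at 1.68 in B16, 1.41 in B16-RII and 1.1 in B16-RIIL, but was at 0.324 and not detected in B16-RI. B16-RI stood apart from the other 3, at least 5.18-fold lower than B16. Casp1 was detected in B16-RIIL only, at 1.22, which was at least 1.65-fold above B16 and not called. Casp12 and Casp14 were detected in no line.

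In the Bcl2 family, Bcl2 itself was lower in B16-RII at both probes. The first probe (625076) had scaled signals of 2.52 in B16, 1.39 in B16-RI, 0.64 in B16-RII and 1.99 in B16-RIIL. The second probe (835867) had 2.23, 2.02, 0.65 and 0.774. In B16 the S/N was 5.2 at the first probe and 3.76 at the second, the latter near the limit of 3. Neither probe was detected in B16-RII, at least 3.94-fold and 3.43-fold lower than B16. In B16-RIIL the probes disagreed. The first was detected at 1.27-fold below B16 and was at least 3.11-fold above B16-RII, while the second was not detected and was at least 2.88-fold below B16. The stretch before the RefSeq start of Bcl2 lies at chr1:106714291-106714540 on the - strand and held 7 GC boxes, in capitals, and none of the other motifs.
Bcl2: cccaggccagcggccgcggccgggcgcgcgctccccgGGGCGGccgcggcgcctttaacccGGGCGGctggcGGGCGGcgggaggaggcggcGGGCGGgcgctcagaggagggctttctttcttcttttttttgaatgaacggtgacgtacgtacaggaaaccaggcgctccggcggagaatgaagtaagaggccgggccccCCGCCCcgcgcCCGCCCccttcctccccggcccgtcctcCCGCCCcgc
Which Bcl2 transcripts the probes bind was not tested.

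Of the other guardians of the mitochondrion, Mcl1 and Bcl2l1 stayed within 1.5-fold of B16. Mcl1 had scaled signals of 28.0 in B16 and 38.7, 39.5 and 38.7 in the passaged lines, which lay together at 1.38-fold to 1.41-fold above B16. Bcl2l1 (Bcl-xL) had 28.3, 27.1, 29.1 and 23.4. Bcl2l2, Bcl2l10 and all Bcl2a1 probes were not detected in any line. Bcl2l12, a more distant relative, was highest in B16 at 8.54, against 4.43, 5.9 and 3.96 in B16-RI, B16-RII and B16-RIIL. It was 1.93-fold, 1.45-fold and 2.16-fold lower, and the call in B16-RIIL was lost under all 4 other scalings. Bcl2l13, a mitochondrial member, had 35.4, 33.7, 37.8 and 32.1.

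The pore formers and the BH3-only proteins showed no call in any line. Bax had 69.3, 78.7, 71.9 and 68.0, and Bak1 5.65, 4.31, 6.34 and 6.83. Bok, another pore former, had 3.53 in B16 and 2.46, 2.18 and 2.37 in the passaged lines, at most 1.62-fold below B16. Among the BH3-only proteins, Bid, which links the receptor route to mitochondria, had 13.9 in B16 and 9.22, 10.4 and 8.82, or 1.34-fold to 1.58-fold below B16. Bcl2l11 (Bim) was on the other side, with 2.99 in B16 and 4.27, 3.81 and 4.36, or 1.27-fold to 1.46-fold above B16. These differences had the same sign in all 3 lines, but the 3 comparisons share the B16 array. Bbc3 (Puma), a p53 target, had 28.5, 20.9, 24.4 and 28.3, and Bad 10.7, 8.83, 10.7 and 10.6. Pmaip1 (Noxa) was not detected in any line.

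Among the other inhibitors of apoptosis, Birc5 (survivin), which also serves in cell division, was detected in every line at both probes. The first had 211, 277, 269 and 267 and the second 498, 520, 513 and 392, and the probes differed in sign only in B16-RIIL. Birc4 (Xiap), the direct inhibitor of caspases, had 27.3, 27.6, 32.2 and 30.2 at the probe detected in every line. Another Birc4 probe was detected in B16-RII alone, at 1.42, which was at least 1.89-fold above B16 and passed 2-fold under all 4 other scalings. It was at least 2.19-fold lower in B16-RIIL than in B16-RII, while the remaining probe was not detected. The probes of Birc4 therefore disagreed between the second round lines, where the first differed by 1.07-fold. Of the 2 probes of Birc6, a giant ubiquitin ligase, 1 was detected in B16-RII only, at 1.52, and 1 nowhere.

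**Figure D4:**
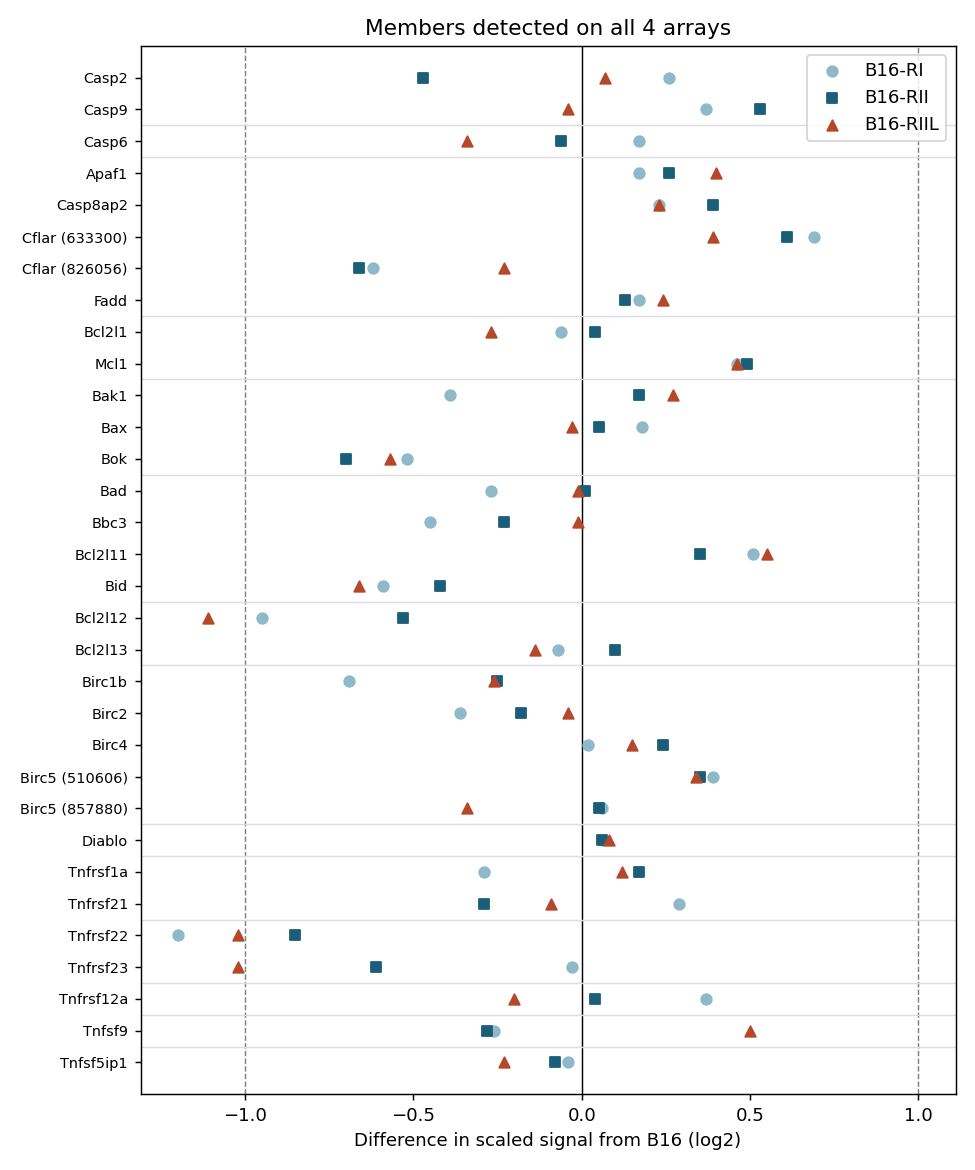
Difference in scaled signal from B16 (x axis, log2) for 32 of the 35 member probes detected on all 4 arrays (y axis, by gene, with the probe number where a gene has several, and grouped by role), with a symbol per passaged line. Dashed lines mark 2-fold. Most points lie between them, none of the 32 drawn probes passes the upper line, and Tnfrsf22, Tnfrsf23 and Bcl2l12 pass the lower line in at least 1 line.

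Over the 35 probes detected on all 4 arrays, the median log2 difference from B16 was -0.03 in B16-RI, 0.04 in B16-RII and -0.01 in B16-RIIL. The median size of the difference was 0.29, 0.25 and 0.24, against 0.23, 0.25 and 0.27 over all 11604 such probes. Within 1.5-fold of B16 lay 28, 29 and 30 of the 35, or 80.0%, 82.9% and 85.7%, against 85.4%, 83.8% and 82.3% of all probes. B16-RII and B16-RIIL were closer to each other, with 34 of 35 within 1.5-fold (97.1%), against 89.2% of all probes. The exception was Tnfsf9 (4-1BB ligand), a costimulator of T cells, with 4.18, 3.49, 3.44 and 5.89 in B16, B16-RI, B16-RII and B16-RIIL, and 1.71-fold higher in B16-RIIL than in B16-RII. At 2-fold, 0 of the 35 were above and 1 below B16 in B16-RI, against 1.23% and 2.78% of all such probes. In B16-RII 1 was above and 0 below, against 1.62% and 2.71%, and in B16-RIIL 1 was above and 3 below, against 2.03% and 2.4%. Between B16-RIIL and B16-RII there was no call, against 1.22% above and 0.827% below. The centring fixes the median over all probes at 0.

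At the cell surface, the death domain receptors detected in every line were Tnfrsf1a and Tnfrsf21. Tnfrsf1a, the main TNF receptor, had 78.9, 64.6, 88.6 and 85.6, within 1.22-fold of B16. Tnfrsf21 (DR6) had 1.32, 1.61, 1.08 and 1.24, within 1.23-fold. Tnfrsf6 (Fas) and Tnfrsf10b, the TRAIL receptor of the mouse, were not detected in any line, with S/N values of at most 0.43 and 2.41. Of the 2 probes of Fas ligand, 1 was detected in B16-RII, at 0.628 with an S/N of 3.08, and the other in no line. Tnfrsf12a, the receptor of TWEAK, had 46.8, 60.4, 48.2 and 40.7.

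Besides Tnfrsf11b, the mouse decoy receptors Tnfrsf22 and Tnfrsf23, which bind TRAIL without a death domain and are neighbours on chromosome 7, were lower in B16-RIIL. Tnfrsf22 had 6.29, 2.74, 3.49 and 3.1 in B16, B16-RI, B16-RII and B16-RIIL, or 2.3-fold, 1.8-fold and 2.03-fold lower than B16. Tnfrsf23 had 1.53, 1.5, 1.0 and 0.755, or 1.02-fold, 1.53-fold and 2.03-fold lower. Their patterns differed in B16-RI, where only Tnfrsf22 was lower by 2-fold. All 3 calls of these 2 genes were lost under each of the 4 other scalings. Their relative Tnfrsf26 was not detected. Of the 4 decoy receptor probes, only that of Tnfrsf11b was at least 2-fold lower in B16-RIIL under every scaling, while Tnfrsf22 and Tnfrsf23 kept their direction at less than 2-fold under the 4 others.

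Of the ligands, a probe shared by Tnfsf12 (TWEAK) and Tnfsf13 (APRIL) had 1.48, 1.06, 0.576 and 0.724. It was not detected in B16-RII, at least 2.57-fold below B16, and 2.04-fold below B16 in B16-RIIL. The call in B16-RII was lost with the deposited values. The probe names both genes, so the source of its signal cannot be told apart.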

How the data were processed

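The authors hybridized digoxigenin-labeled cRNA from 500 ng of RNA to Applied Biosystems Mouse Genome Survey V2.0 arrays and deposited, for each probe, the raw intensity and a normalized intensity. The latter was found to be the raw intensity over 1 of 2 constants per array, for sets of 16524 and 16488 probes, and not quantile normalized as the methods state. The authors also deposited 2 analyzer scores, a signal-to-noise ratio and a flag, and the limits of 3 and 5000 are those of the methods. The file names no genome build. Of its 65 columns, 16 were used. Another 20 columns of per-sample values come from second arrays that match no sample label and were not used, and 28 columns of the authors' log2 values and ratios were not used either. The sources describe duplicates for each line, while the labels give 1 sample per line.

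The deposited normalized intensity was turned to log2 with no pseudocount, and each probe set was centred on its median difference from B16 over the probes detected on all 4 arrays. In the deposited values, set 1 was above B16 by 0.39, 0.41 and 0.46 log2 units in B16-RI, B16-RII and B16-RIIL, and set 2 by 0.07, 0.42 and -0.01. Members lay in both sets, 46 and 44 probes. For bounds, an undetected signal was raised to the lowest detected one on that array (0.276 to 0.32) where it lay below it. No test, interval or p-value was computed, and precision is limited by having 4 arrays. The named genes were all members called in any comparison and a list of core members. Counts cover all members, but some named genes and 1 marker are not reported here. Members and lists were chosen with earlier results of these data known. Current names, chromosomes and promoters came from RefSeq tables (GRCm38.p6), which matched 82 of 82 member genes, and the promoter table held 67 of them. Alternatives were the deposited values, quantile normalization, median and 75th percentile scaling, other detection filters, other fold limits and 1 probe per gene. The counting rules were tested on simulated data, but only at probes detected on all 4 arrays. The rule for bounds, on which many of the calls rest, was not tested this way. Calculations used Python 3.11.15, numpy 2.4.6, pandas 2.3.3 and matplotlib 3.10.9.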

Additional observations from a re-analysis of the deposited data

How the results depend on the processing

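Of 33 calls of members, 27 were kept under all 4 other scalings. The calls lost under every other scaling were Tnfrsf22 in B16-RI and B16-RIIL, and Bcl2l12 and Tnfrsf23 in B16-RIIL. Tnfsf12/Tnfsf13 in B16-RII was lost as deposited, and Birc1a in B16-RII under 3 scalings. A call absent here was made for Birc4 in B16-RII, above B16, under all 4 other scalings. Calls were made under 1 to 3 of them for members such as Cflar in B16-RI, Casp9, Cflar, Mcl1 and Tnfsf6 in B16-RII, Bcl2l11 and Casp1 in B16-RIIL, all above B16, and Birc6 in B16-RIIL below B16-RII. None of 132 values of the called probes under the 4 other scalings was reversed, but 44 moved by at least the SD per probe. Of the 132, 20 no longer passed 2-fold. The probes were chosen for having passed 2-fold, so a reversal needed a shift of more than 2-fold. With the deposited values, members above B16 numbered 2 in B16-RI and 7 in B16-RII, 2 were below B16-RII in B16-RIIL, and the median difference of B16-RII from B16 was 0.45. Above B16 in B16-RI quantile normalization gave 1 and median scaling 2, and the latter gave 8 above in B16-RII. With an S/N of at least 5, there were 4, 3 and 5 below B16 in B16-RI, B16-RII and B16-RIIL, 2 above in B16-RIIL, and 0 below B16-RII in B16-RIIL. Without a detection filter, 1 was above and 12 below in B16-RI, 20 below in B16-RII and 17 below in B16-RIIL, with 9 above and 5 below B16-RII in B16-RIIL. With detection on all 4 arrays, 1, 0 and 3 were below B16 in B16-RI, B16-RII and B16-RIIL, 1 was above in B16-RII and 1 in B16-RIIL, and 0 were above and 0 below B16-RII in B16-RIIL. At 1.5-fold, 2 were above and 12 below in B16-RI, 7 above and 11 below in B16-RII, and 3 above and 2 below B16-RII in B16-RIIL. At 4-fold, 4, 1 and 1 were below B16 in B16-RI, B16-RII and B16-RIIL, 1 was above in B16-RII and 2 in B16-RIIL, and 0 were above and 0 below B16-RII in B16-RIIL. With 1 probe per gene, 0 were below B16-RII in B16-RIIL. Stricter filters and higher limits keep fewer probes by construction. The deposited values differ from the scaled signals only by the offset of each probe set, and for the other scalings the cause was not tested. No paired analysis was possible because 1 array per line, the one with a sample label, was used here, so no replicate could be left out either. Signals near the detection limit set most of the bounds.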

Other observations

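Other genes of the pathway, from a list of 70 genes outside the symbols used above, had 63 probes for 56 genes on the array, of which 39 were detected on all 4 arrays and 15 on none. In B16-RI 4 of the 63 probes were 2-fold or more above B16 (6.35%), against 3.75% of all probes, and 5 below (7.94%), against 5.69%. In B16-RII 2 were above (3.17%), against 3.34%, and 0 below, against 5.61%. In B16-RIIL 2 were above (3.17%), against 4.24%, and 1 below (1.59%), against 5.05%. Between the second round lines, 2 were above and 2 below in B16-RIIL (3.17% each), against 4.56% and 3.22%. Bnip3, a mitochondrial BH3-like protein induced by low oxygen, was lower in B16-RI at both probes. Its first probe had scaled signals of 60.9, 24.6, 46.5 and 34.7 in B16, B16-RI, B16-RII and B16-RIIL, and its second 103, 46.3, 81.2 and 69.6. B16-RI was the lowest line at both, at 2.47-fold and 2.22-fold below B16. Its relative Bnip3l gave probes that disagreed. The first had 1.2, 7.44, 8.01 and 6.31, or 6.2-fold, 6.68-fold and 5.26-fold above B16, while the second had 114, 89.6, 119 and 123, within 1.27-fold of B16.

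Ngfr, the neurotrophin receptor p75 with a death domain, was detected in B16-RIIL only, at 4.37, with 0.47, 0.963 and 1.12 in B16, B16-RI and B16-RII. B16-RIIL was at least 9.29-fold above B16 and at least 3.89-fold above B16-RII. Cdkn1a (p21), a p53 target that halts the cell cycle, had 31.3, 22.7, 28.7 and 57.6, and was 2.01-fold higher in B16-RIIL than in B16-RII and 1.84-fold above B16. Trp53 itself had 17.1, 16.5, 21.3 and 15.6. Card4 (Nod1), a sensor of bacterial cell walls, had 3.22, 1.38, 2.82 and 2.29, and was 2.33-fold lower in B16-RI, the line in which Casp4 was not detected. The remaining calls were at Cideb, Eda, Pdcd4, Pdcd6, Ripk2, Traf1 and Traf5. For Cideb 1 probe was called above B16 in B16-RI and the other in B16-RII, and of the 3 Pdcd4 probes 1 was 2.1-fold above B16 in B16-RI, 1 was not called and 1 was detected on no array.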
